A study of Mus musculus with 16 samples.

Results

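Short-term hematopoietic stem cells (ST-HSC) and megakaryocyte-erythroid progenitors (MEP) were compared on 6 one-colour microRNA (miR) arrays, 3 of each population, out of 16 arrays in the series. The arrays were chosen by their titles. Both populations came from the bone marrow of young female C57Bl/6 mice, and per the study's methods each sample was a pool of several animals. ST-HSC were sorted as lineage-negative, c-kit+, Sca-1+, CD34+, FLT3- cells, and MEP as lineage-negative, c-kit+, Sca-1-, CD34-, FcRg- cells, in a separate sort. The cell sort therefore cannot be told apart from the population in any difference between ST-HSC and MEP. The sources name no treatment or genetic change for either group.

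MiRs are short RNAs that guide Argonaute proteins to messenger RNAs, chiefly through the seed, the stretch near the 5′ end of the miR. MiRs with the same seed can share targets, and miRs of one cluster can be cut from a common primary transcript. Stem cells of the marrow are known for the related clusters that pair a miR-99 or miR-100 with a let-7 and a miR-125, while miR-144, miR-451 and miR-486 are known from red cell formation.

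The mature sequences of the miRs on which the comparison turns are given here from RefSeq (GRCm38.p6), 5′ to 3′, with the seed (bases 2 to 8) in capitals. The first set shows that miR-99a, miR-99b and miR-100 share one seed, that both miR-125 forms share another, and that let-7e and let-7c also have one in common.
miR-99a: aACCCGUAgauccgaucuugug
miR-100: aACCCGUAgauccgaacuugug
miR-99b: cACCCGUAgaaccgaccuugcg
miR-125b-5p: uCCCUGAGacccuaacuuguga
miR-125a-5p: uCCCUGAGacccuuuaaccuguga
let-7e: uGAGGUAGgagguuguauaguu
let-7c: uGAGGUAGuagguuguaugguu

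The second set holds the miRs that lie within the Hox gene clusters, where miR-10a and miR-10b differ by 1 base, as do miR-196a and miR-196b.
miR-10a: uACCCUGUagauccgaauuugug
miR-10b: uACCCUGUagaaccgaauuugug
miR-196a: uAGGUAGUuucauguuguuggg
miR-196b: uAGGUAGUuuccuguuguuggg

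The third set gives other miRs with large differences, first those higher in ST-HSC and then the erythroid pair miR-144 and miR-451 with miR-7a, which were higher in MEP. These last 3 have seeds unlike those above and unlike one another.
miR-130a: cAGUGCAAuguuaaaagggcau
miR-146b: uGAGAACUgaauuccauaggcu
miR-146a: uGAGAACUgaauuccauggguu
miR-221: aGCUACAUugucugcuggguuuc
miR-222: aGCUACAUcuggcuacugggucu
miR-144: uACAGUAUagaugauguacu
miR-451: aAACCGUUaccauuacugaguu
miR-7a: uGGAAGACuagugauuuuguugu

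The miR-99b, let-7e and miR-125a-5p sequences lie close together on chromosome 17, at chr17:17830194-17830215, chr17:17830366-17830387 and chr17:17830817-17830840, all on the plus strand. MiR-99a (chr16:77598940-77598961, plus strand) lies beside 1 of the 2 copies of let-7c (chr16:77599672-77599693) and upstream of 1 of the 2 copies of miR-125b (chr16:77646279-77646300). MiR-100 (chr9:41531437-41531458) lies near the other copy of miR-125b (chr9:41581940-41581961). Since the arrays measure mature miRs, the 2 copies of let-7c, or of miR-125b, cannot be told apart. MiR-144 (chr11:78073047-78073066) and miR-451 (chr11:78073186-78073207) are neighbours on the plus strand of chromosome 11.

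Signals are given as log2 of the quantile-normalized intensity, with a floor of 1.62 below which values were not resolved. Before normalization the summed probe signal was 73175 to 136808 units on the ST-HSC arrays and 89579 to 221677 on the MEP arrays. The 95th percentile of the negative control probes was then 12.3 units on MEP 1 and 9.94 on MEP 2. It was 1.53 on MEP 3 and 1.77 to 2.97 on the ST-HSC arrays. The part of this background in the low MEP values was not tested. ST-HSC 1 and MEP 3 lay on the same slide (slide 2), while ST-HSC 2 and 3 lay on slide 3 and MEP 1 and 2 on slide 1, which was read on another scanner model. Pearson's r across the tested miRs was 0.992 between ST-HSC 2 and 3, 0.902 and 0.911 between ST-HSC 1 and those arrays, 0.957 to 0.983 among the MEP arrays and 0.737 to 0.836 between the populations. A miR is called detected on an array where at least 0.5 of the spots of its probe were scored as well above background. Of the 237 tested miRs, 3 to 4 stood at the floor on an ST-HSC array and 25 to 31 on a MEP array. The blood cell marker miR-142-3p gave 13.44, 11.49 and 11.15 in ST-HSC 1, 2 and 3, and 12.70 on each MEP array. MEP 1 stood apart by its skeletal and cardiac muscle miRs: miR-1 (7.12), miR-133a (6.63), miR-133b (7.29) and miR-206 (4.05) were detected there and on none of the other 5 arrays. The summed signal of the 18 measured markers of other tissues was 459 units on MEP 1 and 60.8 to 121 on the other 5 arrays. Their part in the differences was not tested, but results are also given without MEP 1.

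ST-HSC and MEP differed at 142 of 237 tested miRs (59.9%) in limma's moderated test at a Benjamini-Hochberg adjusted p under 0.05. Of these, 91 were higher in ST-HSC (38.4% of those tested) and 51 were higher in MEP (21.5%). Of the 91, 44 were detected on no MEP array, and of the 51, 3 were detected on no ST-HSC array. These counts include 2 called miRs that were detected on none of the 6 arrays. The part of undetected values in the balance of calls was not tested. The median difference over all tested miRs was 0.35 on the log2 scale in favour of ST-HSC. A difference of over 2-fold was measured for 73 miRs called higher in ST-HSC and for 44 called higher in MEP, and one of over 8-fold for 16 and 6. For 136 of the 142 called miRs the 3 ST-HSC arrays and the 3 MEP arrays did not overlap, against 146 of all 237 (61.6%), 93 of them higher in ST-HSC (39.2%) and 53 higher in MEP (22.4%). Without MEP 1, 130 miRs were called, 128 of them among the 142. Where a miR was lower in a population, fewer cells that hold it and less of it per cell cannot be told apart in these sorted pools.

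**Figure D1:**
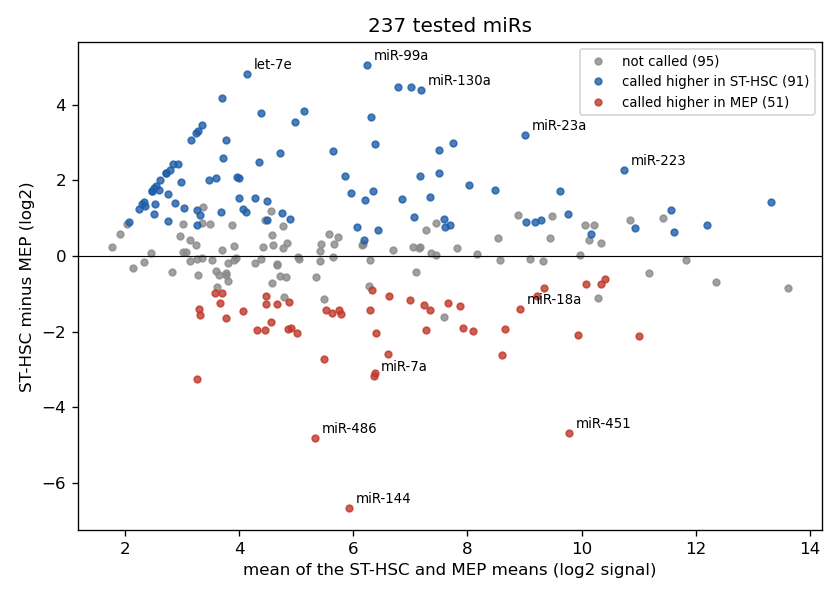
Difference between the ST-HSC and MEP means (log2, vertical axis) against the average of both means (log2 signal, horizontal axis) for each of the 237 tested miRs, coloured by call. Among the called miRs 91 points lie above 0 and 51 below it, with miR-99a at the top (5.07) and miR-144 at the bottom (-6.66).

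The miRs of the miR-99, let-7 and miR-125 clusters were higher in ST-HSC in 6 of 7 cases, against 38.4% of all tested miRs, with a median difference of 3.47. MiR-99a measured 8.90, 8.65 and 8.80 in ST-HSC 1, 2 and 3 and 3.58, 4.12 and 3.45 in MEP 1, 2 and 3. All ST-HSC arrays were thus far above all MEP arrays, where the miR was detected on 2 of 3 arrays. The difference was 5.07 ± 0.24 (SE, as for every difference given with ±), or 33.5-fold (adjusted p = 5.01e-09). MiR-125b-5p, known from stem cell expansion and leukemia, measured 8.83, 9.06 and 9.16 in ST-HSC and 4.45, 5.0 and 4.19 in MEP. These groups were again clearly separated, by 4.47 ± 0.27 or 22.2-fold (adjusted p = 3.09e-08), with all 6 arrays detected.

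The chromosome 17 cluster was seen on all ST-HSC arrays and was not detected on any MEP array, so its folds are given as bounds within the main processing. Let-7e measured 5.63, 6.72 and 7.31 in ST-HSC and 1.62, 1.96 and 1.62 in MEP, which is at least 7.45-fold higher in ST-HSC (adjusted p = 2.30e-07). MiR-125a-5p measured 4.89, 5.03 and 5.33 in ST-HSC and was at the floor on all MEP arrays, at least 2.69-fold higher (adjusted p = 2.24e-07). MiR-99b, at 3.88, 3.99 and 4.27 in ST-HSC and at the floor in MEP, was at least 1.31-fold higher (adjusted p = 6.52e-08). The 3 members of this cluster thus shared one pattern, present in ST-HSC and near or at the floor in MEP. MiR-100 behaved likewise, with 5.86, 4.43 and 4.52 in ST-HSC and the floor in MEP (at least 2.43-fold, adjusted p = 2.39e-05). The bounds compare the ST-HSC mean with the dimmest signal that counted as detected on each MEP array, or with the probe's own value where that was higher. Here and below, an adjusted p beside a bound tests the difference between the floored values and not the bound. Where a miR was at the floor on all MEP arrays, as miR-99b was, its SD there was 0. Any spread below the floor then did not enter the test.

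Let-7c was the member that did not pass the test. It measured 8.80, 10.42 and 10.84 in ST-HSC and 9.31, 9.40 and 8.14 in MEP, so that ST-HSC 1 lay within the MEP range. The difference was 1.07 with a 95% confidence interval of -0.08 to 2.22 (adjusted p = 0.102). The RefSeq sequences of let-7c and let-7e have the same seed and differ by 2 bases in all. Over the 9 tested miRs with this seed, let-7 forms and miR-98, 2 were called higher in ST-HSC, none in MEP, and 7 did not pass. Over all tested miRs 38.4% were called higher in ST-HSC and 21.5% higher in MEP. The differences of the 9 ran from 0.32 to 4.82. The 2 that passed were let-7e and, with a difference of 0.58 and another probe of the opposite sign, let-7i, which is named here after its values were seen. Without ST-HSC 1, 7 of the 9 were called higher in ST-HSC (against 99 of all 237), and with slide as a block 4 were (against 46.8%).

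**Figure D2:**
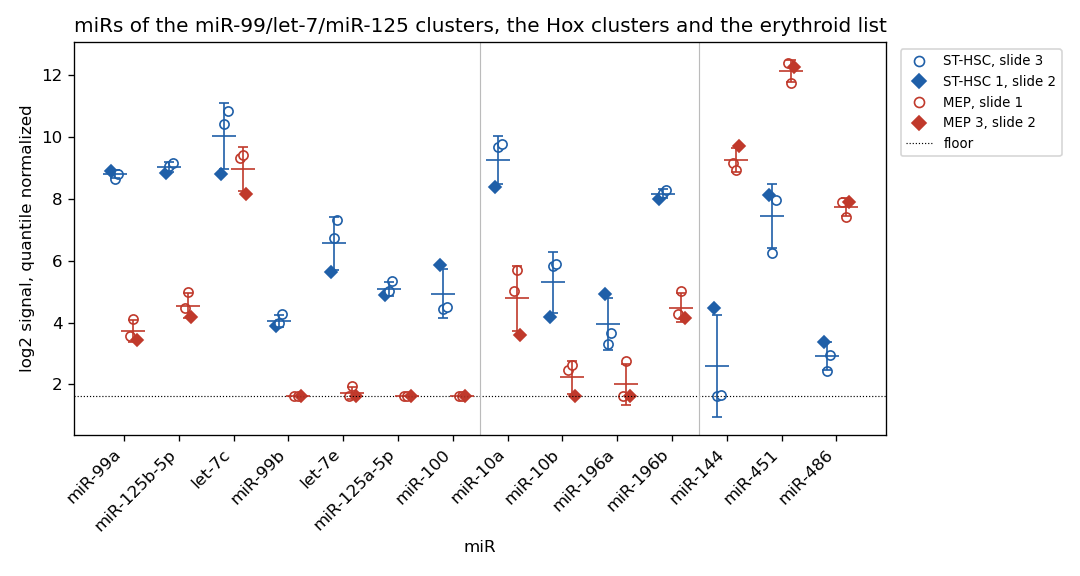
Log2 signal of 14 miRs on each ST-HSC array (blue) and MEP array (red), with the mean and SD of 3 arrays as bars. Diamonds are the arrays of slide 2, circles those of slides 1 and 3, and the dotted line is the floor of 1.62. The blue points lie above the red ones for 10 of the first 11 miRs, let-7c being the exception, and below them for the erythroid miRs miR-144, miR-451 and miR-486.

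The Hox clusters code for transcription factors of body patterning and of stem cell expansion. Among their miRs, 4 of 4 tested members were higher in ST-HSC (against 38.4% of all tested miRs), with a median difference of 3.37. Another member, miR-615-3p, was too dim to be tested. MiR-10a measured 8.37, 9.66 and 9.75 in ST-HSC and 5.02, 5.70 and 3.61 in MEP, a difference of 4.48 ± 0.55 (22.4-fold, adjusted p = 1.39e-05). MiR-196b measured 8.0, 8.19 and 8.28 in ST-HSC and 4.29, 5.01 and 4.15 in MEP, a difference of 3.67 ± 0.34 (12.8-fold, adjusted p = 9.64e-07). Both were detected on all 6 arrays, with every ST-HSC value above every MEP value. Their close relatives miR-10b and miR-196a were dimmer and were not detected on any MEP array. MiR-10b, at 4.17, 5.83 and 5.89 in ST-HSC, was at least 3.12-fold higher there (adjusted p = 0.00176), and miR-196a, at 4.91, 3.31 and 3.66, was at least 1.24-fold higher (adjusted p = 0.00558). The call of miR-196a was lost without normalization, with normexp background correction (difference 0.22) and with a floor of 4 times the main one.

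Erythroid miRs ran in the other direction. All 3 members of that list were higher in MEP, against 21.5% of the tested miRs, with a median difference of -4.82. MiR-144 measured 9.14, 8.93 and 9.69 in MEP and 4.48, 1.62 and 1.67 in ST-HSC, where only ST-HSC 1 was detected. Its difference was -6.66 ± 0.68 (adjusted p = 2.82e-06), a size that rests on ST-HSC values at or near the floor and that was -3.08 with normexp background correction. MiR-451, which is cut from the same transcript as miR-144 and matures without Dicer, measured 12.39, 11.73 and 12.24 in MEP and 8.10, 6.26 and 7.95 in ST-HSC. It was detected on all 6 arrays and 25.7-fold higher in MEP (-4.68 ± 0.61, adjusted p = 2.38e-05). MiR-486, a miR of maturing red cells, measured 7.91, 7.40 and 7.91 in MEP and was not detected on any ST-HSC array. Under the main processing it was at least 20.8-fold higher in MEP (adjusted p = 2.82e-06). Its log2 difference was -1.83 in the alternative that gave the smallest size.

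MiR-99a, miR-125b-5p, miR-10a, miR-196b and the 3 erythroid miRs kept their direction and their call when any 1 of the 6 arrays was left out. Counted over whole lists, 6 or 7 of the 7 cluster miRs, 4 of the 4 Hox miRs and 3 of the 3 erythroid miRs were called in each of those 6 fits.

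Outside those lists, miR-130a, which is known from platelet-forming cells as well as from stem cells, measured 10.45, 8.83 and 8.88 in ST-HSC and 4.62, 5.49 and 4.87 in MEP. The difference was 4.40 ± 0.38 (21.0-fold, adjusted p = 5.65e-07). MiR-126-3p, which restrains stem cell cycling, measured 8.08, 6.65 and 6.86 in ST-HSC and 5.54, 5.54 and 5.37 in MEP (3.28-fold, adjusted p = 0.00108). Both were higher on every ST-HSC array than on any MEP array, and ST-HSC 1 was the brightest of them for each. All 6 tested members of the list of miR-126, miR-130 and miR-301 forms were called higher in ST-HSC, against 38.4% of all tested miRs. Their median difference was 1.20, and without normalization 1 of the 6 was called. The call of miR-126-5p was lost under 8 of the alternative settings, and miR-130b had another probe of the opposite sign. MiR-721, which has the seed of miR-130a and was singled out after its values were seen, differed the other way: 6.84, 7.35 and 6.70 in ST-HSC against 8.40, 9.0 and 9.20 in MEP (difference -1.90, adjusted p = 0.0030).

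The miRs linked to inflammatory signalling, miR-146a, miR-146b and miR-155, were all 3 higher in ST-HSC (against 38.4% of all tested miRs). MiR-146b measured 6.65, 7.08 and 7.42 in ST-HSC and 3.60, 4.44 and 1.62 in MEP, where it was detected on 1 array (difference 3.83 ± 0.52, adjusted p = 3.70e-05). MiR-146a, which differs from miR-146b by 2 bases outside the seed, measured 7.69, 5.13 and 6.03 in ST-HSC and was at least 6.18-fold higher there, with no MEP array detected. MiR-155 measured 6.37, 7.26 and 7.50 in ST-HSC and 4.38, 4.57 and 3.82 in MEP (6.89-fold, adjusted p = 1.49e-04). None of the 3 overlapped between the populations, against 61.6% of all tested miRs without overlap.

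MiR-221 and miR-222, known to target the receptor KIT in erythroid cells, share a seed and were both higher in ST-HSC (against 38.4% of all tested miRs). MiR-222 measured 7.91, 7.75 and 7.91 in ST-HSC and 4.66, 5.10 and 4.95 in MEP (7.73-fold, adjusted p = 3.09e-08). MiR-221 measured 8.51, 9.09 and 9.14 in ST-HSC and 6.34, 6.39 and 5.60 in MEP (6.97-fold, adjusted p = 5.65e-07). In the clusters of miR-23, miR-27 and miR-24, 4 of 5 members were higher in ST-HSC (against 38.4% of all tested miRs). Without normalization 2 of the 5 were called. The brightest, miR-23a, measured 10.48, 10.66 and 10.66 in ST-HSC and 7.58, 7.65 and 6.98 in MEP (9.18-fold, adjusted p = 3.09e-08), while miR-27a was 7.98-fold higher and miR-24 3.71-fold higher. The remaining member, which shares the seed of miR-27a, had the lowest difference of the list, 0.70, and did not pass.

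Among lineage miRs, miR-223, the miR of granulocytes, measured 11.79, 12.07 and 11.79 in ST-HSC and 9.97, 10.61 and 8.26 in MEP (4.83-fold, adjusted p = 5.04e-04). The lymphoid miR-150 measured 5.27, 5.64 and 5.88 in ST-HSC and was not detected on any MEP array (at least 3.82-fold, adjusted p = 3.20e-04). MiR-450a-5p, from an X-linked cluster, had the highest bound among the miRs higher in ST-HSC: it measured 7.48, 6.43 and 6.34 in ST-HSC and was at least 8.55-fold higher there (adjusted p = 4.09e-06). MiR-203, a miR of keratinocytes and 1 of the 2 tested markers of other tissues, measured 5.41, 5.95 and 6.01 in ST-HSC and was at the floor on all MEP arrays (at least 4.39-fold, adjusted p = 2.08e-07). The other keratinocyte marker, miR-205, was at the floor on all 6 arrays.

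Of the 4 miR-181 forms, which share a seed and are known from lymphoid development, 4 were higher in ST-HSC (against 38.4% of all tested miRs), from 0.78 (miR-181d) to 2.13 (miR-181a). The call of miR-181d was lost without ST-HSC 1, MEP 1 or MEP 3, and without normalization 1 of the 4 was called. Differences were smaller in other broad families. In the miR-30 family 3 of 5 members were higher in ST-HSC, with a median difference of 0.90, and without normalization none was called. In the miR-15 and miR-16 family 3 of 5 were, led by miR-322 (4.59-fold) and miR-195 (4.31-fold). Both counts stand beside 38.4% of all tested miRs called higher in ST-HSC. MiR-16 itself measured 11.21, 8.95 and 9.06 in ST-HSC and 11.15, 10.93 and 10.48 in MEP and did not pass (adjusted p = 0.0514). ST-HSC 1 here lay with the MEP arrays rather than with the other ST-HSC arrays.

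The same split was seen in the miR-29 family, which targets collagen messenger RNAs and DNA methyltransferases. MiR-29b measured 11.31 in ST-HSC 1 but 7.88 and 7.97 in ST-HSC 2 and 3, with MEP between them at 9.06, 9.34 and 9.0. MiR-29c measured 8.17 in ST-HSC 1 and 6.03 and 6.10 in the others, against 6.95, 6.82 and 6.07 in MEP. Neither passed the test (adjusted p = 0.920 and 0.800), whereas miR-29a was 2.17-fold higher in ST-HSC (adjusted p = 0.00270). In the fit with the slide as a block all 3 members were called higher in ST-HSC, miR-29b by 2.01, and without ST-HSC 1 miR-29c was at -0.54 (adjusted p = 0.114). In the blocked fit the ST-HSC side rests on ST-HSC 1 alone. The direction for miR-29b and miR-29c therefore depended on the weight given to that array.

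The miR-17~92 cluster, an oncogenic cluster that serves B cell and progenitor growth, did not move as one. MiR-18a measured 9.71, 9.52 and 9.62 in MEP and 8.04, 8.40 and 8.22 in ST-HSC (2.64-fold higher in MEP, adjusted p = 1.10e-05). MiR-17 was 2.37-fold and miR-19a 1.53-fold higher in MEP, while miR-19b (1.75-fold) and miR-92a (1.54-fold) were higher in ST-HSC and miR-20a did not pass (adjusted p = 0.120). Thus 3 of 6 members were called higher in MEP and 2 in ST-HSC, against 21.5% and 38.4% of all tested miRs. MiR-19b and miR-92a have 2 copies each, 1 in this cluster on chromosome 14 and 1 on chromosome X, which the arrays cannot tell apart, while the other 4 members have 1 copy. The 2 calls in favour of ST-HSC were lost with slide as a block and without ST-HSC 2, ST-HSC 3 or MEP 3, whereas 3 calls in favour of MEP were made in each of those fits. Scaled to the 75th percentile of probes detected throughout, the cluster had 4 calls in favour of MEP and none in favour of ST-HSC, and without normalization it had no call. Of the 6 miRs with the seed AAAGUGC, which come from this cluster and its relatives, 4 were higher in MEP (against 21.5%) and 2 did not pass. With slide as a block miR-17 was the only one of these 4 still called.

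MiR-7a, which was detected on all 6 arrays, was also higher in MEP. It measured 8.37, 7.69 and 7.83 in MEP and 5.65, 4.26 and 4.42 in ST-HSC (9.10-fold, -3.19 ± 0.35, adjusted p = 5.56e-06). MiR-574-5p was 6.12-fold higher in MEP (10.02, 9.85 and 9.85 against 6.23, 7.97 and 7.69). MiR-762 was 6.05-fold higher (8.19, 7.66 and 7.88 against 5.62, 5.26 and 5.07). These 3 did not overlap between the populations, as the rule by which they were named required.

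Many of the other miRs higher in MEP run from miR-680 to miR-721 in name, a set of mouse miRs of which some match other noncoding RNAs. Of 21 tested, 13 were higher in MEP (against 21.5% of all tested miRs), 1 was higher in ST-HSC and 7 did not pass, with a median difference of -1.43. With slide as a block 19 were called higher in MEP. MiR-682 was at or near the floor in ST-HSC and measured 5.0, 4.47 and 5.23 in MEP (at least 2.91-fold, adjusted p = 3.09e-08). For miR-712*, miR-714 and miR-715 the MEP array of slide 2 was the brightest: miR-712* measured 6.84, 7.50 and 9.44 in MEP 1, 2 and 3, and miR-715 measured 4.88, 4.83 and 8.37. Without MEP 3 the call of miR-715 was lost (-0.87 against -2.04), and 9 of the 21 were called higher in MEP. The difference of miR-712* was -3.09 over 6 arrays and -5.10 within slide 2.

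The study's own list of miRs that mark MEP had 31 of 35 tested members higher in MEP (against 21.5% of all tested miRs). None was higher in ST-HSC, and the median difference was -1.90. That list was chosen on these arrays and is not independent evidence of the direction. A list of miRs that the study assigned to myeloid progenitors in general had 3 of 7 tested members higher in MEP (against 21.5%). Its median was -0.41, and it was also chosen on these arrays. With slide as a block 1 of these 7 was called, and without normalization none. The 12 miRs that the study introduced as known regulators of blood formation had 6 calls in favour of ST-HSC and 5 in favour of MEP. Over all tested miRs 38.4% were called higher in ST-HSC and 21.5% higher in MEP. Without normalization the 12 miRs had 4 and 2 calls.

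**Figure D3:**
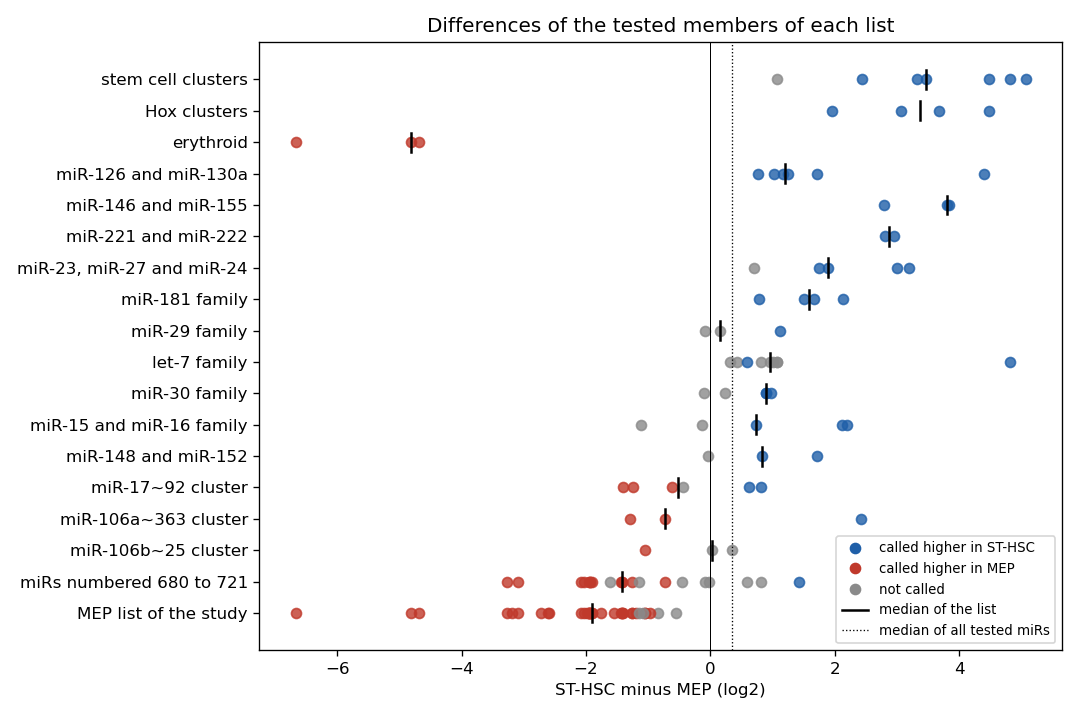
Difference between ST-HSC and MEP means (log2) of each tested member of 18 lists, with the median of a list as a thick bar and the median of all 237 tested miRs (0.35) as a dotted line. The cluster, Hox and miR-146 lists lie to the right with medians of 3.37 to 3.80, and the erythroid list lies to the left with a median of -4.82.

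The miRs were also grouped by their seeds. A RefSeq mature sequence was matched for 149 of the 237 tested miRs, and 19 seeds were held by 2 or more of them. In 8 of these 19 seeds every member was called higher in ST-HSC, among them the seeds of miR-99, miR-10, miR-125, miR-146, miR-181, miR-196 and miR-221. Calls in both directions occurred in 2 seeds, those of miR-130a with miR-721 and of miR-19a with miR-19b. No seed held by 2 or more tested miRs had every member called higher in MEP. Counted per miR rather than per seed, 38.4% of all tested miRs were called higher in ST-HSC and 21.5% higher in MEP. Probes for miRs that differ by 1 base can detect both, and this was not tested here.

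Since ST-HSC 1 and MEP 3 shared a slide, each difference was also taken between these 2 arrays, which are part of the 6 and give no test. Of the 142 called miRs, 141 differed in the same direction there, 90 of 91 in favour of ST-HSC and 51 of 51 in favour of MEP, against 201 of all 237. Both arrays also entered the fit that made the calls. The exception was miR-330*, named after its values were seen, at 1.84 in ST-HSC 1 and 2.63 in MEP 3. MiR-99a differed by 5.45 within the slide, miR-125b-5p by 4.65, let-7e by 4.01, miR-10a by 4.75, miR-130a by 5.58 and miR-146a by 6.01. MiR-144 differed by -5.20, miR-451 by -4.13 and miR-486 by -4.53. Each of these lay on the same side as its value over 6 arrays, whereas miR-487b, called higher in ST-HSC (2.72, adjusted p = 0.00970), differed by 0.02 within the slide and by -0.28 with slide as a block.

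With slide as a block, 171 of 237 miRs were called (72.2%), 111 higher in ST-HSC (46.8%) and 60 higher in MEP (25.3%). Of the 142 called without the block, 127 were called in the same direction, 14 were not called and 1, miR-330*, was called in the other direction (-0.60, adjusted p = 0.0152). All 7 cluster miRs, let-7c included (0.64, adjusted p = 0.0138), all 4 Hox miRs and all 3 erythroid miRs were called in the direction given above. Slides 1 and 2 are tied in this fit by CMP, GMP and MEP, but slides 2 and 3 only by ST-HSC. ST-HSC 2 and 3 therefore only set the level of slide 3, and ST-HSC 1 alone gives the ST-HSC side of the blocked difference. The blocked calls thus largely repeat the check within slide 2 and are not a result of 3 ST-HSC arrays.

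**Figure D4:**
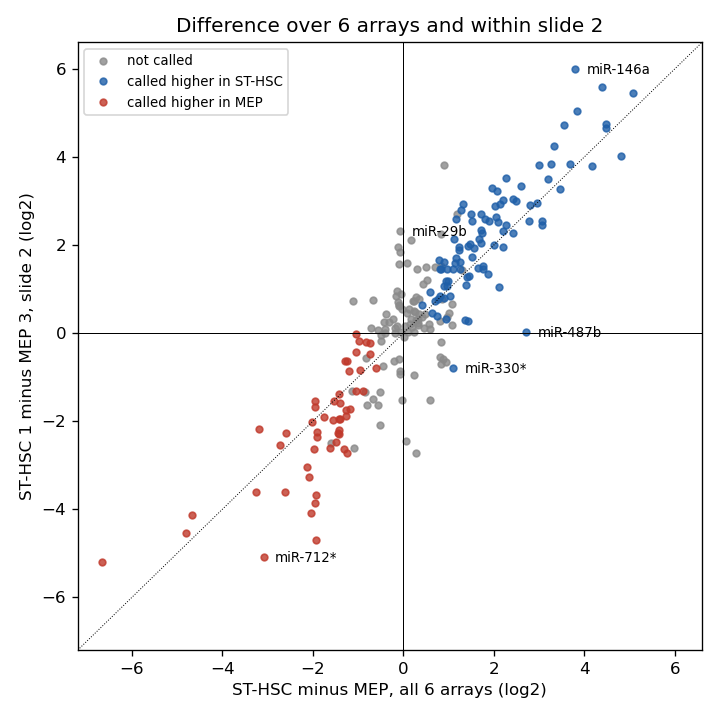
Difference between ST-HSC 1 and MEP 3, both on slide 2 (log2, vertical axis), against the difference between the means of 3 and 3 arrays (log2, horizontal axis) for the 237 tested miRs. Of the coloured points, the called miRs, 141 of 142 lie in the upper right or lower left quadrant. MiR-330* lies below 0 and miR-487b at 0.02, while the grey miR-29b lies at 2.31 within the slide.

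To place the low MEP levels, MEP was also set against its sister populations, the common myeloid progenitors (CMP) and the granulocyte-monocyte progenitors (GMP). These comparisons share the MEP arrays with the one above. By the study's account CMP, GMP and MEP came from the same kind of sort, and their arrays lay on the same slides. MEP differed from GMP at 149 of 237 miRs (62.9%), 97 of them lower in MEP (40.9%) and 52 higher (21.9%). It differed from CMP at 153 (64.6%), 104 of them lower in MEP (43.9%) and 49 higher (20.7%). MiR-99a averaged 8.78 in ST-HSC, 7.54 in CMP, 6.40 in GMP and 3.72 in MEP, and was lower in MEP than in GMP by 2.68 ± 0.24 and than in CMP by 3.83 ± 0.24. MiR-10a averaged 9.26, 7.61, 7.35 and 4.78 in the same order, with CMP and GMP closer to each other than their spread. Let-7e averaged 6.55, 4.43, 3.21 and 1.73. For these 3 miRs MEP was the lowest of the 6 populations, while MPP, at 9.16, 9.93 and 7.46, stood highest.

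Counted by list, 4 of 7 cluster miRs, let-7e among them, were lower in MEP than in GMP, against 40.9% of all tested miRs. Set against CMP, 6 of 7 were lower in MEP, against 43.9% of all tested miRs. MiR-99b and miR-125a-5p were at the floor in both GMP and MEP and have no order there, while in CMP miR-125a-5p averaged 3.23 and miR-99b 2.21. Both CMP means lay below the dimmest signal that counted as detected on any CMP array (4.05 to 4.65). The order of CMP and MEP is therefore not resolved for these miRs either, although miR-125a-5p counts among the 6. All 4 Hox miRs and all 5 members of the miR-23, miR-27 and miR-24 clusters were lower in MEP than in either sister. MiR-23a averaged 10.60 in ST-HSC, 10.25 in CMP and 10.39 in GMP, against 7.40 in MEP, so that MEP alone stood apart among these 4. MiR-223 averaged 11.88 in ST-HSC, 12.66 in CMP, 14.04 in GMP and 9.61 in MEP. MiR-126-3p was not distinguished between MEP and GMP (-0.40, adjusted p = 0.337) but was lower in MEP than in CMP by 1.88 ± 0.35.

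The erythroid miRs were high in MEP against both sisters, with miR-144 above GMP by 7.35 and above CMP by 6.44, and miR-451 by 6.75 and 5.21. Their levels outside MEP were uneven. The single array of long-term HSC (LT-HSC), on slide 2, measured 11.15 for miR-451, 5.29 for miR-144 and 6.34 for miR-486, each above all ST-HSC, MPP, CMP and GMP arrays. ST-HSC 1, on the same slide, had the highest miR-144 (4.48) of the 3 ST-HSC arrays, and CMP 3 and GMP 3, also on slide 2, had the highest of theirs (3.78 and 2.48). This difference between slides was not tested. MiR-18a and miR-17 were not distinguished between MEP and GMP (adjusted p = 0.396 and 0.616), and miR-7a was above GMP by 0.97 (adjusted p = 0.0290) and above CMP by 1.54 (adjusted p = 0.00189).

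**Figure D5:**
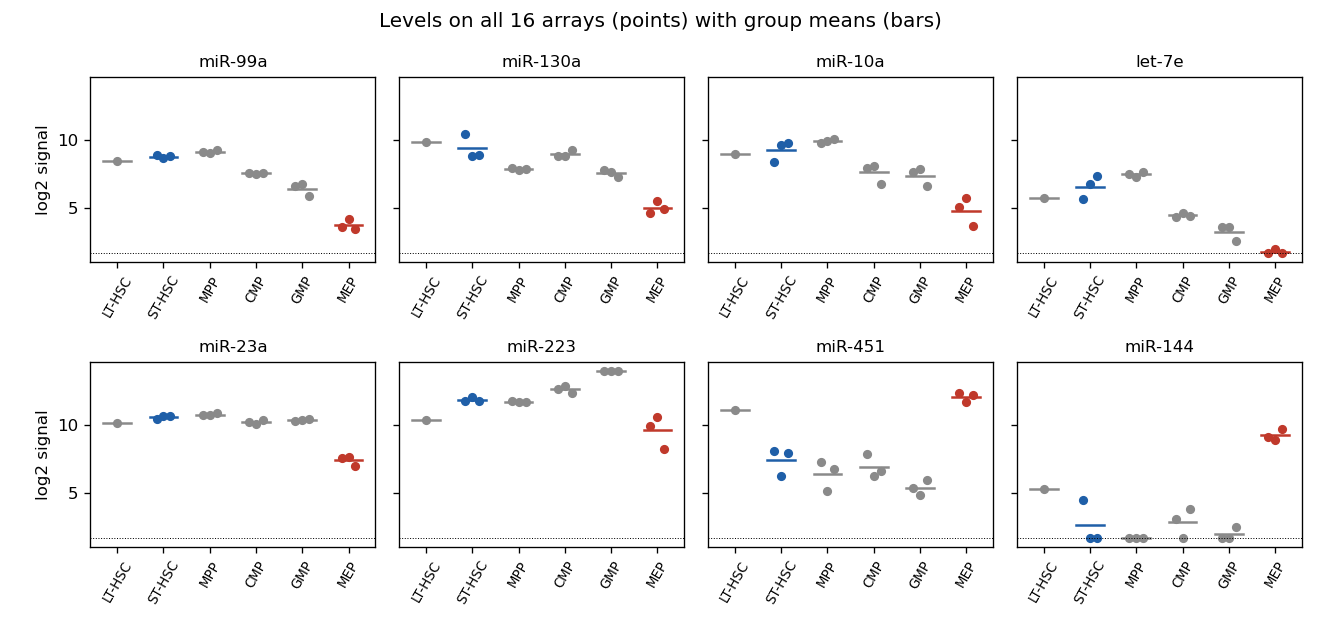
Log2 signal of 8 miRs on all 16 arrays (points) with the group mean (bar), for LT-HSC (1 array) and for ST-HSC, MPP, CMP, GMP and MEP (3 arrays each). ST-HSC is blue, MEP red, and the dotted line is the floor. For miR-99a, miR-10a, let-7e and miR-23a the MEP points are the lowest of all, and for miR-144 and miR-451 they are the highest.

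The number of miRs detected per array was 179, 217 and 202 in ST-HSC and 165, 168 and 180 in MEP. The means of 199 ± 19.1 and 171 ± 7.94 (SD, n = 3 each) differed by 28.3, and the two-sided exact permutation test gave p = 0.2, with 0.1 the smallest p that 3 against 3 arrays allow. Within slide 2 the numbers were 179 and 180. Of all miRs, 132 were detected on all 6 arrays, 26 on all ST-HSC and no MEP array, and 2, miR-486 and miR-682, on all MEP and no ST-HSC array. Among those 26 were let-7e, miR-99b, miR-125a-5p, miR-100, miR-10b, miR-196a, miR-146a and miR-150. Among the 131 tested miRs detected on all 6 arrays, 40 were called higher in ST-HSC and 34 higher in MEP. Over all 237 tested miRs these counts were 91 (38.4%) and 51 (21.5%).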

How the data were processed

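The deposited scanner files hold the intensity of each spot, background-subtracted by Agilent Feature Extraction (version 9.5.3.1 for slide 1, 10.2.1.3 for slides 2 and 3, per the file headers). The authors also deposited log2 values, quantile-normalized with limma, which follow the foreground signal and were used as an alternative. Control and outlier spots were left out, spots of a probe averaged, and the 16 arrays quantile-normalized. Signals under 3.07 units were set to that floor (the 95th percentile of negative control probes, as a median of the arrays), and log2 was taken. Probes detected on at least 3 arrays were kept: 493 of 1712 probes, 237 of 577 miRs, with the brightest probe standing for a miR. No spot was saturated. A linear model of the 16 arrays, with a mean for each population, was fitted by lmFit and eBayes (limma 3.58.1, R 4.3.3, and the packages data.table, version 1.17.8, and jsonlite, version 2.0.0), with 10 residual and 3.10 prior degrees of freedom, and p-values were adjusted over 237 miRs. The fit was tested on simulated data.

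The unnumbered titles are ST-HSC 1 and MEP 3. The labels do not tie title numbers to shared animals or days. P-values measure the spread between pooled samples. The number of arrays limits the precision. Named miRs were, per direction, the 12 largest differences without overlap and detected on all arrays of the higher side and at least 1 of the lower side, the 6 highest bounds, the members of 4 short lists and the 4 largest differences of each family. The arrays, lists and named miRs were chosen with earlier results of these data known. Alternatives covered normalization, background correction, floor, filter, probe choice, arrays fitted, blocks and each array left out. Sequences and coordinates are from RefSeq, with older names matched by hand, and probe coordinates of the files (mm9) were not used.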

Additional observations from a re-analysis of the deposited data

Results flagged for a closer look

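Outside the tested miRs, 4 markers of muscle were well above background on MEP 1 and on no other of the 6 arrays: miR-1 at 7.12, miR-133a at 6.63, miR-133b at 7.29 and miR-206 at 4.05 on the log2 scale. On the other 5 arrays miR-1, miR-133a and miR-133b were at the floor of 1.62. Where this signal came from was not tested. Without MEP 1, 82 miRs were called higher in ST-HSC and 48 higher in MEP, against 91 and 51 with it. Groups of 3 arrays were not tested for outlying arrays.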

How the results depend on the processing

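The number of called miRs was 123 to 155 when 1 of the 6 arrays was left out (81 to 99 higher in ST-HSC and 42 to 56 higher in MEP), against 142 (91 and 51). It changed by over 1.5 times under 2 settings. Without normalization 62 were called (39 and 23), and 97 instead of 153 between MEP and CMP. With only the probes detected on all 16 arrays, 65 of 105 tested miRs were called (40 and 25), since fewer miRs were tested. The cause of the first change was not tested. The share of calls in favour of ST-HSC was 58.1% to 66.7% under all settings that were fitted to many miRs. Another scaling moved the median difference of all miRs from 0.35 to 0.18 (75th percentile of probes detected throughout), normexp moved it to 0.12, and the authors' values moved it to 0.09. The difference in detected miRs was 19.5 to 38.5 when an array was left out.

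No replicate pairing could be shown. Deviations from the group means correlated at -0.03, -0.08 and -0.07 between same-numbered arrays, and the fit with the replicate number as a block called 144 miRs (91 and 53).

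Of 1744 values of the 77 named miRs under the alternatives, 31 changed sign, 91 lost a call and 30 gained one. With slide as a block the sign turned for miR-487b (-0.28), miR-20a (0.26), miR-16 (0.63), miR-25 (-0.11), miR-101b (0.066), miR-148b (0.55) and miR-29b (2.01). Of these only miR-487b had been called. Without a block, miR-29b was at 0.040 scaled to the 75th percentile of all probes, at 0.0033 with normexp, at 0.083 with the 6 arrays alone and at 0.096 with slides 2 and 3 alone. MiR-148b was at 0.12 scaled to that percentile, at 0.13 with the mean of its probes and at 0.099 with slides 2 and 3 alone. MiR-29c was at -0.039 scaled to the 75th percentile of probes detected throughout and at -0.032 in the authors' values. MiR-30a was at -0.11 and -0.049 in the same 2 settings, at -0.027 without normalization and at -0.14 with the mean of its probes. With 1 array left out, miR-29b ran from -1.22 to 0.50, miR-29c from -0.54 to 0.53, miR-148b from -0.25 to 0.11 and miR-25 from -0.13 to 0.22. The sizes of dim miRs depended on the background, as for let-7e (1.19 to 5.30), while miR-451 ran from -5.03 to -4.09.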
